A study of Mus musculus with 18 samples.

Results

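The genes described here are 10 chaperone and stress response genes of the unfolded protein response and the heat shock response, chosen by name in 2 groups of 5. The endoplasmic reticulum (ER) group holds Hspa5, Hsp90b1, Herpud1, Dnajb9 and Xbp1, and the cytosolic group holds Hspa8, Hsp90aa1, Hsph1, Dnajb1 and Hsf1. All 10 were found, through their Ensembl identifiers, in each of the 3 deposited tables, of 12679 genes for p53WT at 10 h, 12861 for p53null at 10 h and 12838 for p53WT at 72 h. The samples were mouse acute myeloid leukemia (AML) cells that carried MLL/ENL and Nras, either with wild type p53 (p53WT) or without p53 (p53null). They had been grown in C57BL/6 recipients by syngeneic transplant, and once the disease was established the mice were given vehicle or CX-5461, which inhibits RNA polymerase I. There were 6 groups of 3 samples, a vehicle and a CX-5461 group each for p53WT AML after 10 h and after 72 h and for p53null AML after 10 h. Every group came from GFP-positive cells sorted from bone marrow, and the labels give neither the ages of the mice nor the number of independently derived leukemias. They do not say whether the samples of a group came from separate mice, so p-values measure the spread between these samples.

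Proteins entering the secretory pathway fold in the ER with the help of chaperones, and sensors in the ER membrane raise the transcription of those chaperones when unfolded protein accumulates. This unfolded protein response runs through the transcription factors XBP1, ATF6 and ATF4, and it is known for its large role in secretory cells. The heat shock response serves the cytosol and nucleus: HSF1, held inactive in unstressed cells, binds heat shock elements and raises the transcription of cytosolic chaperones. Splicing of Xbp1 RNA and activation of HSF1 protein are not visible in counts per gene.

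The promoter stretches below are shown because the ER and cytosolic members are known to be reached by different transcription factors, whose binding motifs these stretches hold. They were read from RefSeq promoter windows (250 bases before to 50 bases after each start, build GRCm38.p6), written in the direction of transcription, with the motif match in capitals.
Hspa5, chr2:34772020-34772048, plus strand: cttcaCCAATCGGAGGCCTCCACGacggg
Hsp90b1, chr10:86705513-86705676, minus strand: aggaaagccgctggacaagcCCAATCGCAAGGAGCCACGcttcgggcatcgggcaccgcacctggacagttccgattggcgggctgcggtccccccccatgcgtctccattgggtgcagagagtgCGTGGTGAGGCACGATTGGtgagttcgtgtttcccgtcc
Herpud1, chr8:94386357-94386407, plus strand: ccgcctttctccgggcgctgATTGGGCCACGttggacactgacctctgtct
Hsph1, chr5:149636283-149636305, minus strand: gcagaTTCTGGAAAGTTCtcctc
In Hspa5 the capitals mark an ER stress element (CCAAT, then any 9 bases, then CCACG), 65 to 47 bases before the RefSeq start and inside an exon and UTR of Hspa5 in GENCODE M21. Hsp90b1 held the same element at 212 to 194 bases before its start and, on the other strand, at 107 to 89 bases before it, with no annotated exon at either place. In Herpud1 the capitals mark the shorter form of the element (ATTGG, then any 1 base, then CCACG), 52 to 42 bases before the start and outside annotated exons. In Hsph1 they mark a heat shock element (TTC, any 2 bases, GAA, any 2 bases, TTC, or its reverse complement), 37 to 49 and 16 to 28 bases after its 2 RefSeq starts, in an exon and UTR of Hsph1. Both strands were searched. The ER stress element was found in 0.119% of 32851 windows, the shorter form in 0.0365% and the heat shock element in 0.603%. The window table held 7 of the 10 members, without Hspa8, Hsp90aa1 and Hsf1. The windows of Dnajb9, Xbp1 and Dnajb1 held none of these motifs, which says nothing about the factors. Among the other ER chaperones and folding enzymes, 6 of 17 genes held the ER stress element (Calr, Canx, Creld2, Dnajc3, Ero1b and Pdia6), and among the other cytosolic heat shock genes 0 of 27 did.

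Counts per library were used for p53WT AML at 10 h alone, where the 6 libraries held 21578685 to 48118513 counts over the retained genes. The log2 CPM values (counts scaled to the TMM-normalized library total) were compared across genes. Those of vehicle libraries correlated with each other less closely (Pearson r 0.974 to 0.987) than those of the CX-5461 libraries did (0.995 to 0.996). The vehicle libraries differed in RNA of genes known as markers of other marrow cells. Erythroid marker genes (14 of 18 in the table) summed to 5940, 19900 and 787 CPM in vehicle libraries 1, 2 and 3 and to 472 to 685 CPM with CX-5461. Neutrophil markers (12 of 12) summed to 7310 to 19300 CPM against 3040 to 4180 CPM, and plasma cell markers (7 of 15) to 163 to 654 CPM against 96.9 to 121 CPM, with Sdc1, Mzb1, Tnfrsf17, Prdm1 and Irf4 absent from the table. Macrophage markers (10 of 11) summed to 354 to 587 CPM in vehicle and to 337 to 376 CPM with CX-5461, mostly from Vcam1 and Adgre1. All 10 had negative log2 fold changes (median -1.26). Of these, 1 passed (C1qa) and 9 had an unadjusted p under 0.05 (edgeR quasi-likelihood), against 31.4% of all genes. The 2 measured T and NK cell genes summed to 57.4 to 72.7 CPM against 91.7 to 93.1 CPM. They went opposite ways: Nkg7, which made up most of that sum, had a log2 fold change of 0.51 and Cd3d of -1.79. Markers of the leukemia cells themselves (11 of 11) summed to 13900 to 18000 CPM in vehicle and to 18700 to 18900 CPM with CX-5461. That sum is mostly the granule genes Mpo, Elane, Prtn3 and Ctsg. In edgeR's quasi-likelihood fit 0 of the 11 passed, with 4 under 0.05 before adjustment. Of the 11 log2 fold changes 9 were positive (median 0.19). Outside the granule genes they were 0.39 for Myb, 0.24 for Kit, 0.19 for Meis1 and 0.08 for Hoxa10. Those of Hoxa9, Cd34 and Flt3 were 0.02, -0.26 and -2.19. In bulk RNA such as this, fewer cells of a type and less RNA per cell cannot be told apart. Whether the marker RNA came from other cells or from the leukemia cells was not tested. Trp53 was at 142 to 168 CPM in vehicle and 180 to 183 CPM with CX-5461 in these libraries, and the authors' deposited tables gave it a mean of 61.5 CPM in p53null AML.

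In p53WT AML at 10 h the cytosolic chaperone Hspa8 was higher with CX-5461, and none of the 5 ER members passed the test. Hspa8 encodes HSC70, the HSP70 chaperone that cells make at all times. It was at 1753, 1572 and 2144 CPM in vehicle libraries 1, 2 and 3, and at 2717, 2610 and 2786 CPM in CX-5461 libraries 1, 2 and 3. The groups did not overlap: the lowest CX-5461 library stood above the highest vehicle library. The mean went from 1823 ± 292 to 2704 ± 88.7 CPM (SD, n = 3), 1.48-fold, a log2 fold change of 0.57 (SE 0.114, adjusted p = 0.0387, quasi-likelihood test of edgeR, Benjamini-Hochberg adjustment over all genes). The call was lost without vehicle library 1 (adjusted p = 0.051) and without CX-5461 library 1, 2 or 3 (adjusted p = 0.171, 0.158 and 0.129), while the log2 fold change stayed between 0.47 and 0.70. Hspa8 has processed pseudogenes, and the sources used here do not say how reads shared with them were counted.

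The other cytosolic members did not pass. Hsp90aa1, the stress-inducible cytosolic HSP90, was at 949, 765 and 1049 CPM in vehicle and at 1277, 1210 and 1184 CPM with CX-5461. Its groups did not overlap either, and its mean was 921 ± 144 against 1224 ± 48.1 CPM (log2 fold change 0.41, SE 0.114, adjusted p = 0.065). It passed when vehicle library 2 (log2 fold change 0.29, adjusted p = 0.0348) or vehicle library 3 (0.51, adjusted p = 0.0355) was left out. Hsph1, an HSP110 protein that exchanges the nucleotide of HSP70, was at 77.7, 51.2 and 118 CPM in vehicle and at 129, 106 and 121 CPM with CX-5461. Vehicle library 3 lay within the range of the CX-5461 libraries, and the vehicle libraries spread from 51.2 to 118 CPM (log2 fold change 0.53, SE 0.270, adjusted p = 0.224). Without vehicle library 3 Hsph1 passed at a log2 fold change of 0.88 (adjusted p = 0.0378).

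Dnajb1, the HSP40 partner that stimulates HSP70, was at 68.6, 78.3 and 68.2 CPM in vehicle and at 73.1, 73.9 and 77.5 CPM with CX-5461. All 3 CX-5461 libraries lay inside the vehicle range, at a log2 fold change of 0.06 (SE 0.0671, adjusted p = 0.569). Hsf1, which encodes the transcription factor of the heat shock response, was at 60.2, 50.5 and 60.2 CPM in vehicle and at 66.8, 59.6 and 63.9 CPM with CX-5461. CX-5461 library 2 lay inside the vehicle range and the other CX-5461 libraries above it (log2 fold change 0.16, SE 0.0838, adjusted p = 0.251).

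The ER members overlapped between groups in all 5 cases. Hspa5 encodes BiP, the HSP70 of the ER lumen and the best known target of the unfolded protein response, and its ER stress element is printed above. It was at 1111, 849 and 1133 CPM in vehicle and at 1176, 1086 and 1261 CPM with CX-5461. CX-5461 library 2 was below vehicle libraries 1 and 3, and the log2 fold change was 0.19 (SE 0.120, adjusted p = 0.327). Hsp90b1, the HSP90 of the ER lumen (GRP94), was at 707, 577 and 760 CPM in vehicle and at 765, 731 and 763 CPM with CX-5461. Vehicle library 3 was above CX-5461 library 2, and the log2 fold change was 0.14 (SE 0.101, adjusted p = 0.366).

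Herpud1 is an ER membrane protein of the degradation machinery for misfolded proteins. It was at 108, 104 and 87.2 CPM in vehicle and at 94.4, 97.3 and 124 CPM with CX-5461, where library 3 alone stood above the vehicle range (log2 fold change 0.08, SE 0.125, adjusted p = 0.712). Dnajb9 encodes ERdj4, a J-domain partner of BiP. It was at 35.3, 31.4 and 31.0 CPM in vehicle and at 32.6, 32.2 and 40.1 CPM with CX-5461, again with library 3 alone above the vehicle range (log2 fold change 0.10, SE 0.103, adjusted p = 0.534). Xbp1, whose product is a transcription factor of the unfolded protein response, was at 287, 259 and 292 CPM in vehicle and at 266, 267 and 293 CPM with CX-5461, so that both groups covered nearly the same range (log2 fold change -0.02, SE 0.0664, adjusted p = 0.86).

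**Figure D1:**
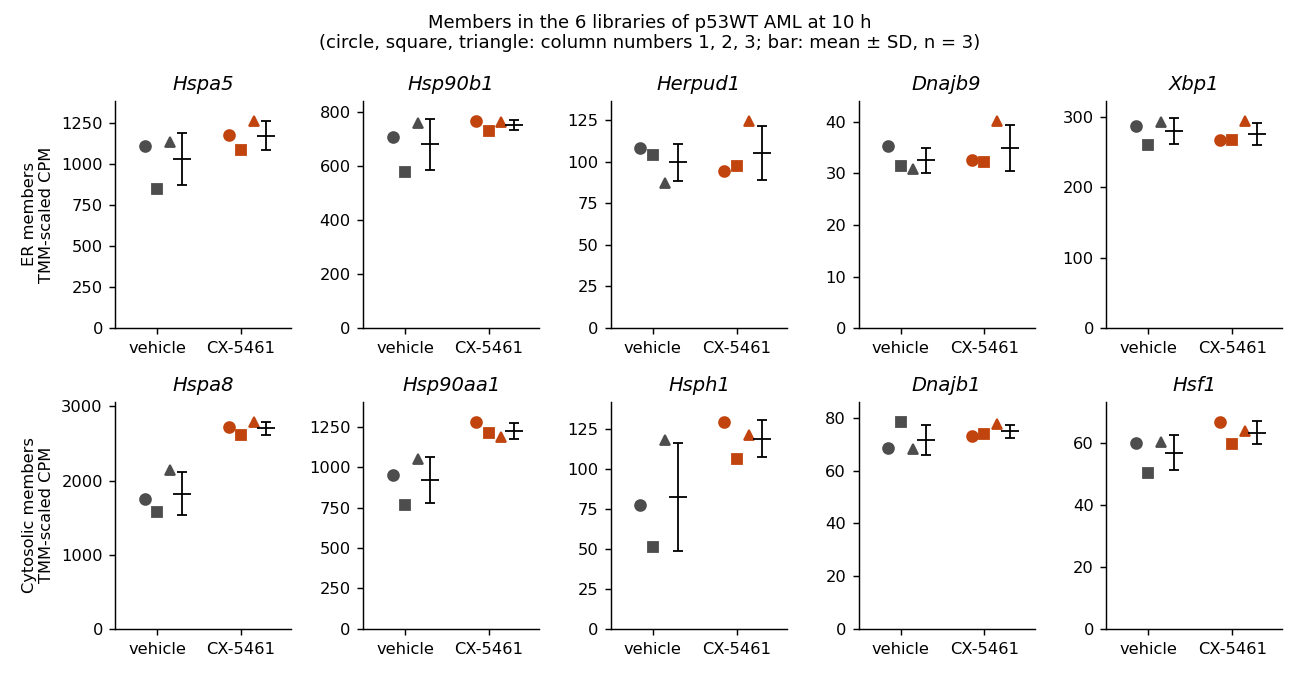
Each panel plots 1 member in p53WT AML at 10 h, with TMM-scaled CPM on the vertical axis, a symbol for each vehicle and CX-5461 library (circle, square and triangle for libraries 1, 2 and 3) and the group means with their SD (n = 3). The points of Hspa8 and Hsp90aa1 separate by group, and those of the other 8 members overlap.

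By compartment, the edgeR quasi-likelihood test called 0 of 5 ER members and 1 of 5 cytosolic members (higher) at 10 h in p53WT AML. Over all 12679 genes it called 3.78% higher and 4.32% lower, and the 1 call among the 10 members was Hspa8. At an unadjusted p under 0.05 the counts were 0 of 5 ER and 2 of 5 cytosolic members, against 31.4% of all genes. The share over all 10 members together was below that background, while that of the cytosolic members alone was not. The other tools run also called 0 ER members. They called 1 (limma-voom) or 2 (DESeq2 and the edgeR exact test) cytosolic members, all higher, where they called 3.11%, 7.57% and 5.47% of all genes higher, in that order. All CX-5461 libraries lay above all vehicle libraries for 2 of 5 cytosolic members and 0 of 5 ER members, against 19.9% of all genes. The authors' deposited table of this comparison also called Hspa8 alone among the 10 (log2 fold change 0.57, FDR 0.0029), where 3.57% of all genes were called higher and 6.83% lower.

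The median log2 fold change was 0.10 over the ER members and 0.41 over the cytosolic members, a difference of -0.31, ER minus cytosolic, which was -0.15 with the erythroid and -0.19 with the plasma cell covariate described below. The ER and cytosolic medians themselves were -0.11 and 0.03 with the erythroid covariate, and -0.03 and 0.16 with the plasma cell covariate. The median of the cytosolic members against their vehicle mean was 0.48, 0.41 and 0.38 (log2) in CX-5461 libraries 1, 2 and 3, and -0.0021, -0.20 and 0.20 in the vehicle libraries. For the ER members the same values were 0.0062, -0.012 and 0.30 with CX-5461 and 0.12, -0.11 and 0.068 in vehicle. The cytosolic medians thus separated the groups and the ER medians did not. The difference of medians is a description of 5 genes a side, with no test.

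The markers of other cells moved with the values of some members. The immediate early genes, known to respond to cell handling, summed to 324, 414 and 250 CPM in vehicle libraries 1, 2 and 3 and to 230 to 246 CPM with CX-5461, the same vehicle order as the erythroid sums. All 8 measured had negative log2 fold changes (median -0.50), and Dusp1 and Zfp36 fell (edgeR quasi-likelihood, adjusted p = 0.0498 and 0.0412); their part in the members' values was not tested. Vehicle library 2 had the most erythroid RNA and the lowest CPM of Hspa8, Hsp90aa1, Hsph1, Hspa5, Hsp90b1, Xbp1 and Hsf1. Vehicle library 3 had the least erythroid RNA of the vehicle group and the highest vehicle CPM of those genes, with Hsf1 at 60.2 CPM in vehicle libraries 1 and 3. The other members did not follow this order. Dnajb1 was highest in vehicle library 2, and Herpud1 and Dnajb9 were lowest in vehicle library 3. With a covariate for erythroid RNA (the list's mean log2 CPM), the log2 fold change of Hspa8 was 0.20 (edgeR quasi-likelihood, adjusted p = 0.542) and that of Hsph1 was -0.42 (adjusted p = 0.45). That of Hsp90aa1 was 0.03 (adjusted p = 0.937). Those of Herpud1 and Dnajb1 became larger in the same fit, at 0.37 (adjusted p = 0.532) and 0.23 (adjusted p = 0.46). Calls over all genes went from 1027 to 20. With the plasma cell list as the covariate, Hspa8 was at 0.27 (adjusted p = 0.281) and Hsp90aa1 at 0.16 (adjusted p = 0.563). The erythroid list itself separated the groups, so that its part in the cytosolic values and the part of treatment cannot be told apart in these 6 libraries. Vehicle library 3 was the vehicle library nearest to the CX-5461 libraries in erythroid RNA, but not level with them. Its mean log2 CPM of the erythroid list was 3.869, against 2.135 to 2.621 with CX-5461. In that library Hspa8 was at 2144 CPM, against 2610 CPM in the lowest CX-5461 library. Hsph1 was at 118 CPM there, against 106 to 129 CPM with CX-5461. These are values of 1 library and were not tested.

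**Figure D2:**
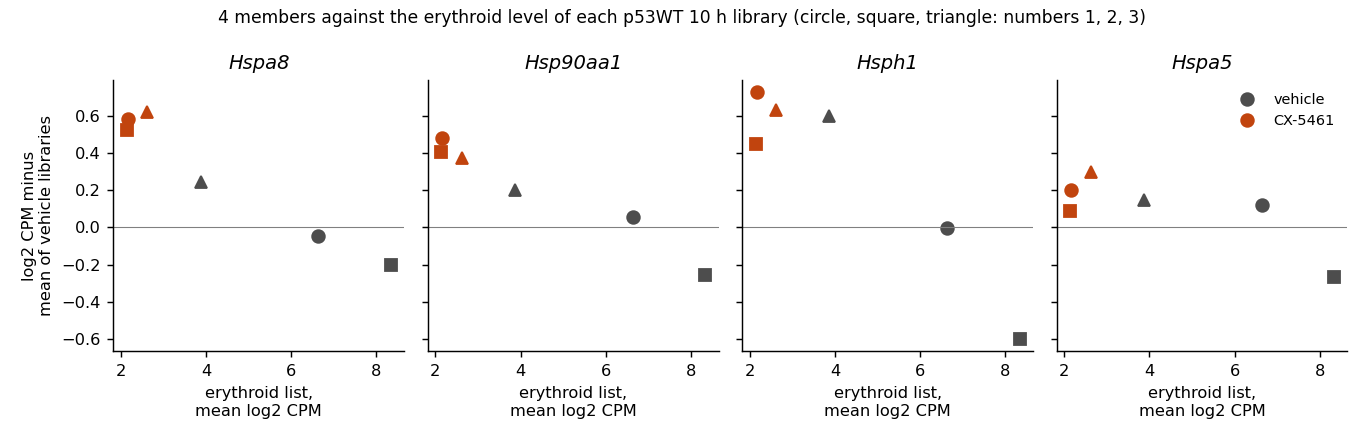
The 4 panels plot Hspa8, Hsp90aa1, Hsph1 and Hspa5 as log2 CPM minus the mean of the vehicle libraries (vertical axis) against the mean log2 CPM of 14 erythroid marker genes (horizontal axis) in the 6 libraries of p53WT AML at 10 h, coloured by group. The 3 CX-5461 libraries sit together at the low erythroid end, and the vehicle libraries spread to the right, with vehicle library 2 farthest.

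The wider pathway was counted on lists of genes other than the members. Among 21 other ER chaperones and folding enzymes, 0 passed at 10 h in p53WT AML (edgeR quasi-likelihood; 1 at an unadjusted p under 0.05; 1 by DESeq2 and 0 by limma-voom and the exact test), with a median log2 fold change of 0.08. The lectin chaperone Calr had the smallest p there, at 0.31 (SE 0.0915, adjusted p = 0.0733), followed by its partner Canx at 0.14. Fkbp11, an ER folding enzyme that stands in the plasma cell list and not in this one, did pass and is named after its values were seen. It was at 8.73, 6.18 and 5.86 CPM in vehicle and at 14.3, 11.6 and 13.0 CPM with CX-5461, opposite to the other 6 measured genes of the plasma cell list (log2 fold change 0.90, SE 0.173, adjusted p = 0.0368). Among 18 genes of ER-associated degradation and translocation 0 passed (1 at an unadjusted p under 0.05; 0 by each of the other tools), with a median of -0.01.

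Of 11 sensors and effectors of the unfolded protein response, 0 passed (2 at an unadjusted p under 0.05; 1 by DESeq2 and by the exact test, 0 by limma-voom). Ppp1r15a, the stress-induced subunit that reverses eIF2 alpha phosphorylation, was at 34.9, 101 and 5.91 CPM in vehicle and at 4.85, 4.41 and 4.34 CPM with CX-5461 (log2 fold change -3.38, SE 0.898, adjusted p = 0.0594). Its order over the vehicle libraries was that of the erythroid sums above, with library 3 close to the CX-5461 libraries. It passed without vehicle library 3, and the authors' deposited table called it lower.

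Outside the ER, 3 chaperone lists were read in the same edgeR quasi-likelihood test, which called 3.78% of all genes higher. The list of other cytosolic heat shock genes had 3.85% called higher, near that share, so its call is not a result about the list. Among 26 measured of 30 other cytosolic heat shock proteins and cochaperones, 1 passed: Fkbp4, an HSP90 cochaperone, at 215, 175 and 227 CPM in vehicle and 291, 272 and 272 CPM with CX-5461 (log2 fold change 0.44, SE 0.0972, adjusted p = 0.0438). The list had a median of 0.20 and 15 of 26 genes at an unadjusted p under 0.05, against 31.4% of all genes. DESeq2 called 8 of its genes higher, against 7.57% of all genes. Of the 8 subunits of the cytosolic chaperonin TRiC, 2 rose: Cct3 (0.36, adjusted p = 0.0373) and Cct6a (0.30, adjusted p = 0.0398). Of 8 mitochondrial chaperones, Hspe1 (0.34, adjusted p = 0.0236) and Hspd1 (0.42, adjusted p = 0.0438), the partners of the mitochondrial chaperonin, rose. The authors' deposited table of the same comparison called Fkbp4 (FDR 0.0258) and Hspd1 (FDR 0.0293) higher but not Cct3 (FDR 0.0543), Cct6a (FDR 0.123) or Hspe1 (FDR 0.0644). The median over all genes was 0.00. With CX-5461 library 1, 2 or 3 left out, 0 genes of these 3 lists passed, and 23 to 25 genes of the whole table did. With the erythroid covariate 0 genes of these lists passed as well.

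Hspa1a and Hspa1b, the stress-inducible HSP70 genes, are near-identical copies, so their separate counts are uncertain, and they are named here after their values were seen. Hspa1b was at 6.52, 4.37 and 9.31 CPM in vehicle and at 13.2, 9.69 and 20.6 CPM with CX-5461, with no overlap of the groups (log2 fold change 1.11, SE 0.343, adjusted p = 0.0814). Hspa1a had a log2 fold change of 0.98 (adjusted p = 0.119) in the same test, and the authors' deposited table called both higher (FDR 0.00198 for Hspa1b and 0.00945 for Hspa1a).

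In p53null AML at 10 h the authors' deposited table called 0 of 5 ER and 0 of 5 cytosolic members, where 0.148% of all genes were called higher and 0.0389% lower, 24 genes in all. At an unadjusted p under 0.05 it held 0 ER members and 1 cytosolic member, Hsph1, against 6.07% of all genes. Its log2 fold change of 0.54 (FDR 0.418) was the largest of the 10 members in the authors' deposited table of p53null AML. Hspa8 was at 0.10 (FDR 1) and Hsp90aa1 at 0.13 (FDR 0.955) in that authors' deposited table. The 5 ER members ranged from -0.07 (Herpud1) to 0.13 (Hsp90b1) in the authors' deposited table, with a median of 0.11 against 0.10 for the cytosolic members. No counts per library were used for this comparison, so the spread behind these values is unknown here. Each of the 6 lists of other chaperone and stress genes had 0 calls in the authors' deposited table of p53null AML (6 genes in all at an unadjusted p under 0.05), with 4 of those 6 among the other cytosolic heat shock genes. Hspa1a (1.38, FDR 0.313) and Hspa1b (1.27, FDR 0.337) had larger log2 fold changes there than any member in the authors' deposited table. The marker lists of erythroid cells, plasma cells, neutrophils and macrophages held 0 calls in the authors' deposited table of p53null AML.

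At 72 h in p53WT AML calls lay in both compartments. The authors' deposited table called 3 of 5 ER members higher and 0 lower, and 1 of 5 cytosolic members higher and 1 lower, where 16.1% of all genes were called higher and 15.1% lower. Dnajb9 was higher by a log2 fold change of 0.60 (FDR 5.61e-07), Herpud1 by 0.49 (FDR 1.44e-08) and Hspa5 by 0.38 (FDR 0.00018) in the authors' deposited table. Hspa5 and Herpud1 hold the ER stress elements printed above, and Dnajb9 held no match in its window. Hsp90b1, with 2 such elements, was at -0.11 (FDR 0.368) and Xbp1 at -0.07 (FDR 0.568) in the authors' deposited table, so that the 3 calls did not extend to every ER member.

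On the cytosolic side at 72 h, Dnajb1 had the largest log2 fold change of the 10 members in the authors' deposited table, 0.76 (1.69-fold, FDR 2.18e-11). Hsf1 was lower at -0.24 (FDR 0.0342) in the authors' deposited table, a call that did not hold at an FDR of 0.01. Hspa8 was at 0.31 (FDR 0.0659), Hsp90aa1 at -0.16 (FDR 0.329) and Hsph1 at -0.10 (FDR 0.735) in the authors' deposited table. Both groups held values of either sign, with 3 positive and 2 negative among the ER members and 2 positive and 3 negative among the cytosolic members. Their medians in the authors' deposited table were 0.38 for the ER members and -0.10 for the cytosolic members, a difference of 0.47 that was 0.33 without the transcription factor genes Xbp1 and Hsf1.

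**Figure D3:**
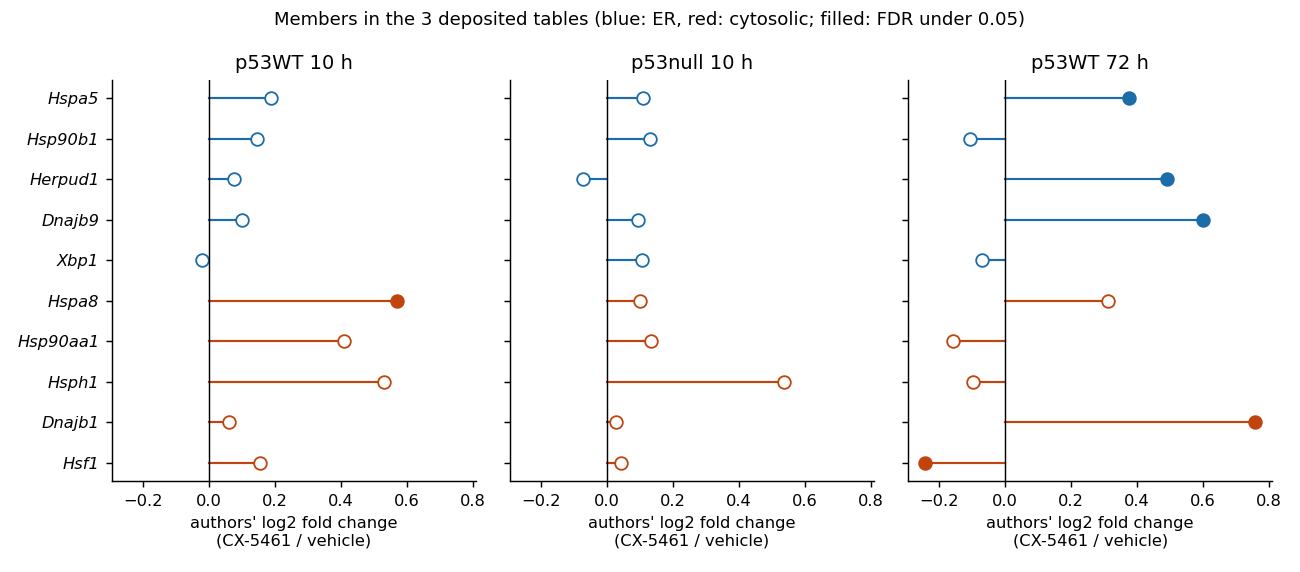
The plot gives the authors' log2 fold change (CX-5461 over vehicle, horizontal axis) of the 10 members (rows, grouped by compartment) in the 3 deposited tables, with filled symbols for an FDR under 0.05. Hspa8 is filled at 10 h in p53WT AML, no member is filled in p53null AML, and Hspa5, Herpud1, Dnajb9, Dnajb1 and Hsf1 are filled at 72 h.

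The 3 comparisons have separate vehicle groups, and no member was called in more than 1 of them in the authors' deposited tables. Hspa8 was at 0.57, 0.10 and 0.31 in the authors' deposited tables of p53WT 10 h, p53null 10 h and p53WT 72 h, in that order. Hsp90aa1 was at 0.41, 0.13 and -0.16 and Hsph1 at 0.53, 0.54 and -0.10 in the same authors' deposited tables. Dnajb1 was at 0.06, 0.03 and 0.76 there, and Hsf1 at 0.16, 0.04 and -0.24, again from the authors' deposited tables. Of the ER members in the authors' deposited tables, Hspa5 was at 0.19, 0.11 and 0.38, Herpud1 at 0.08, -0.07 and 0.49, and Dnajb9 at 0.10, 0.09 and 0.60. Hsp90b1 was at 0.14, 0.13 and -0.11 and Xbp1 at -0.02, 0.11 and -0.07 in the authors' deposited tables. The differences between genotypes and between times were not tested, since 2 of the 3 tables were used without counts.

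The wider lists at 72 h showed calls in both directions, where 16.1% of all genes were called higher and 15.1% lower in the authors' deposited table. The counts called higher in the 3 ER and stress sensor lists and the cytosolic list lay near that share, so the genes named are given as values and not as a result about their lists. In the authors' deposited table, genes of ER-associated degradation and translocation had 4 of 18 higher and 0 lower, a median of 0.04. They were the ubiquitin ligase Syvn1 (0.39, FDR 1.95e-05) with its partner Sel1l (0.29, FDR 0.00262), and, named after its values were seen, the translocon subunit Sec61a1 (0.25) with the mannosidase-like Edem1 (0.28), all from the authors' deposited table. The other ER chaperones and folding enzymes had 3 higher (Hyou1 0.22, Manf 0.27 and Txndc11 0.29) and 4 lower (Ero1lb -0.45, Fkbp2 -0.31, Sil1 -0.32 and Ppib -0.25) of 21 in the authors' deposited table. Of these 7 genes, Ero1lb and Fkbp2 follow from the naming rule and the other 5 were named after their values were seen.

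Among 12 sensors and effectors, the authors' deposited table called Atf4 (0.61, FDR 8.79e-07) and Ddit3 (0.45, FDR 0.00713) higher, which encode transcription factors downstream of eIF2 alpha phosphorylation. It called the sensor Ern1 (-0.47, FDR 9.47e-07) and the protease Mbtps1 (-0.25, FDR 0.021) lower in the same authors' deposited table. Ddit3 and Mbtps1 were named after their values were seen. Among 26 other cytosolic heat shock genes, 5 were higher and 2 lower in the authors' deposited table. The HSP70 cochaperones Bag3 (0.65, FDR 2.19e-08) and Dnajb4 (0.62, FDR 3.9e-07) had the smallest FDR of those higher, and Fkbp4, higher at 10 h, was lower at -0.35 (FDR 0.00614) in the authors' deposited table. TRiC had 0 calls of 8 (0 at an unadjusted p under 0.05, against 39.9% of all genes), and of the mitochondrial chaperones Hspe1 was lower (-0.27, FDR 0.0474) in the authors' deposited table.

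**Figure D4:**
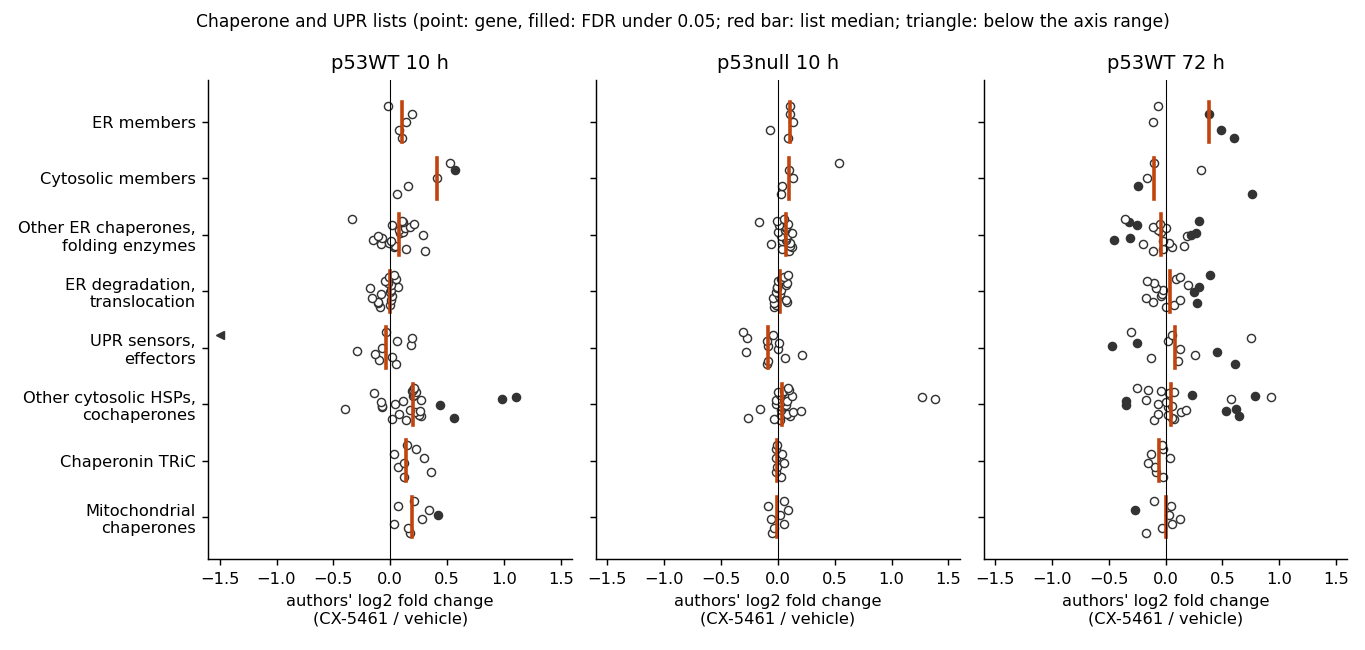
The plot gives the authors' log2 fold change (CX-5461 over vehicle, horizontal axis) of every measured gene of the 2 member groups and the 6 other lists (rows) in the 3 deposited tables, with filled points for an FDR under 0.05, a red bar for each list's median and a triangle for Ppp1r15a beyond the axis. At 72 h called genes appear on both sides of 0 in 4 of the 8 rows, and in p53null AML no gene is called.

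Genes known as markers of other cell types also moved at 72 h. Which of the sorted GFP-positive cells their RNA came from was not tested. In the authors' deposited table, 11 of 12 neutrophil markers were higher (median 1.12), 9 of 11 macrophage markers (median 2.90) and 9 of 15 erythroid markers (median 1.13). Immediate early genes had 6 of 8 higher (median 0.59), and the AML and progenitor list had 1 higher and 6 lower of 11 (median -0.22) in the authors' deposited table. The plasma cell list, whose cell type is known for a strong unfolded protein response, had a median of 1.19 in the authors' deposited table. Only 5 of its 15 genes were measured, without Sdc1, Mzb1, Tnfrsf17 and Prdm1. Of those 5 genes 1 was called higher (Irf4), and 4 had positive log2 fold changes. Igkc was at 1.29 (FDR 0.0984) and Jchain, which set the median, at 1.19 (FDR 0.136) in the authors' deposited table. Ighm was at 0.11 (FDR 0.778) and Fkbp11 at -0.02 (FDR 0.916) there. Whether RNA of such other cell types had a part in the higher Dnajb9, Herpud1, Hspa5 and Dnajb1 was not tested, since no values per library were used at 72 h.

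The genes most like Hspa5 and Hsph1 over the 6 libraries of p53WT AML at 10 h were found by Pearson correlation of log2 CPM. For Hspa5 these were Rbm14 (r = 0.999), Dync1h1 (0.996), Hyou1 (0.995), Golga4 (0.995) and Zbtb40 (0.994), of which Hyou1, an ER chaperone of the HSP110 kind, belongs to the ER lists. For Hsph1 they were Ice2 (0.999), Firre (0.998), Zfx (0.998), Ap1ar (0.997) and Gm14391 (0.996), with no gene of the chaperone lists among them. These are the top 5 of 12679 genes over 6 points that share libraries and depth, and they are given as a description.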

How the data were processed

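RNA was sequenced from 18 samples in 6 groups of 3. The submitters' processing notes name the mm9 build and the tools edgeR, HTSeq, Bowtie and CASAVA 1.8.2; the order, settings and gene annotation are not given in the sources used here. The authors deposited 3 tables with a log2 fold change, a log2 mean CPM, a p-value and an FDR from edgeR, per the file headers. The table of p53WT AML at 10 h also holds the deposited raw counts per gene of 6 libraries. Count columns carry the numbers 1 to 3, which are not those of the sample titles, so each column was assigned to its group, and 0 count columns were left without a group. For the other 2 tables, used without counts, calls are the authors' FDR under 0.05, and the authors' sign was taken as CX-5461 over vehicle.

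Counts were normalized by TMM and tested over all genes with the 2-sided quasi-likelihood F test of edgeR 4.0.16 (R 4.3.3). Treatment was the only term, with 4 residual degrees of freedom, and the threshold was 0.05 on the Benjamini-Hochberg adjusted p. A prior count of 2 was used for the log2 CPM values. The SE of a log2 fold change is its size divided by the square root of F. The fit was tested on simulated data. Alternatives were RLE and plain library sizes, a minimum mean of 5 CPM, DESeq2 1.42.0, limma-voom (limma 3.58.1), the edgeR exact test, robust estimation, each library left out, a block by column number, erythroid and plasma cell covariates and other FDR thresholds. Centring on the table median and the list counts under each setting were added after seeing the data.

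The members and lists were chosen with earlier results of these data known. Named beside the members were the 2 genes of each list with the smallest p at 10 h and up to 2 called genes with the smallest FDR in each authors' table, and any gene named beyond these was chosen after its values were seen. Promoter sequences are those of RefSeq on GRCm38.p6, not the build of the counts. Protein sequences were not used here.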

Additional observations from a re-analysis of the deposited data

How the results depend on the processing

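Over the 10 members and the settings run on the 10 h counts of p53WT AML, 135 log2 fold changes kept their direction and their side of the threshold, 13 reversed, 6 newly passed and 6 no longer passed. The ER count stayed at 0. The cytosolic count of 1 was 2 with DESeq2 and the exact test and 0 with the erythroid or the plasma cell covariate, and it ran from 0 to 3 with a library left out. Calls over all genes (1027) were 2306 with DESeq2, 1715 with the exact test, 20 and 21 with the erythroid and plasma cell covariates, and 23 to 1678 with a library left out. Hspa8 had a log2 fold change of 0.47 to 0.70 and Hsp90aa1 of 0.29 to 0.51 with a library left out. With the erythroid and the plasma cell covariate the values were 0.20 and 0.27 for Hspa8, and 0.03 and 0.16 for Hsp90aa1. Reversed values, none of them called, were Hspa5 -0.11, Hsp90b1 -0.17, Hsph1 -0.42 and Hsf1 -0.04 with the erythroid covariate, Hspa5 -0.03, Hsp90b1 -0.08 and Hsph1 -0.16 with the plasma cell covariate, and Xbp1 0.02 with library size alone. With a library left out Herpud1 ran from -0.06 to 0.15, Dnajb9 from -0.01 to 0.17 and Xbp1 from -0.07 to 0.01. The covariate and left-out fits have fewer residual degrees of freedom, and the cause of the other differences was not tested.

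The difference of medians, ER minus cytosolic, was negative under every setting run at 10 h in p53WT AML (-0.45 to -0.22 with a library left out, -0.15 with the erythroid and -0.19 with the plasma cell covariate, against -0.31). With the erythroid covariate the cytosolic median was 0.03 and the ER median -0.11. The negative difference in that fit thus does not mean that the cytosolic members stayed higher with CX-5461. In p53null AML the difference of medians was 0.00 and became -0.01 without Xbp1 and Hsf1, and at 72 h it went from 0.47 to 0.33. At an FDR of 0.10 the p53null table held 42 calls against 24, and at an FDR of 0.01 the 72 h table held 1 cytosolic call against 2. Centring on the table medians moved no member by more than 0.01.

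With a replicate block by column number, 2 cytosolic members passed, as Hsp90aa1 did at 0.42 (adjusted p = 0.0487, edgeR quasi-likelihood). The deviations of same-numbered libraries correlated at 0.301, 0.106 and 0.0274, so not every pair was over 0.1 and the numbers were not taken as pairs. As a hint from the data, each vehicle library correlated best with the CX-5461 library of its own number, while CX-5461 library 3 correlated best with vehicle library 2 (0.0933). Of calls over all genes, the block gave 679 higher and 857 lower.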
